A study of Mus musculus with 24 samples.

Results

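The immunoglobulin heavy-chain variable genes, or Ighv segments, were described in RNA of sorted cells from the ileum of mice. The members are all genes whose GENCODE M21 symbol starts with Ighv and whose annotated type is a functional variable gene, and these were 113 of the 39056 genes in the count table. Ighv pseudogenes, 70 in the annotation, were left out. Of the 113 segments, 103 had a count in at least 1 of the 12 CD45+ libraries, 58 had a count in every one, and 10 had no count in any library. The 10 without counts were Ighv5-12-4, Ighv2-7, Ighv7-2, Ighv16-1, Ighv6-4, Ighv6-7, Ighv1-16, Ighv1-24, Ighv8-9 and Ighv8-11.

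A B cell builds its antibody heavy chain by joining a single variable segment to a D and a J segment, and all its descendants carry the same choice. The plasma cells of the gut wall are B cell descendants that secrete mostly IgA, and they fill much of their messenger RNA with antibody transcripts. The share of each segment in the variable-gene RNA therefore mixes the number of cells that use it with the amount of antibody RNA in each cell, and in bulk RNA fewer cells of a type and less RNA per cell cannot be told apart.

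The study asked how deficiency of HOIL1, a subunit of the linear ubiquitin chain assembly complex encoded by Rbck1, changes gene expression in the small intestine, and whether the IL-4 receptor α chain of the epithelium takes part. Male and female C57BL/6 mice (C57BL/6J in the study's methods) of 4 genotypes were used, crossing Hoil1+/+ or Hoil1-/- (the mutant allele Rbck1tm1Kiwa) with Il4ra intact or deleted in the epithelium. They are written WT-f/f and WT-ΔIEC for Hoil1+/+ mice, and KO-f/f and KO-ΔIEC for Hoil1-/- mice, where f/f and ΔIEC give the Il4ra genotype as the plots label it. All 4 carry Il4ra flanked by loxP sites, and the ΔIEC mice also carry a Cre recombinase under the villin promoter, which is active in intestinal epithelial cells and not in B cells. The Hoil1-/- allele is not limited to a cell type, so B cells carry it too, and the study describes it as a partial deficiency in which a fragment of HOIL1 is still made at a low level. The CD45+ fraction holds hematopoietic cells of the lamina propria together with those released with the epithelium, after removal of the Peyer's patches, and the CD45- fraction holds the remaining cells. Each genotype and fraction had 3 libraries, numbered here in order of deposit, and the mice of the CD45+ libraries were 9 to 9.9 weeks old and those of the CD45- libraries 9 to 10.3 weeks. The study describes each sample as coming from an individual mouse, while the labels do not name the mice.

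The study left out 3 libraries as outliers: the CD45+ libraries of KO-f/f replicate 1 and KO-ΔIEC replicate 3, and 1 CD45- library of KO-f/f. Usage is given for all 12 CD45+ libraries, and the tests use the 10 that the study kept unless all 12 are named. Rbck1 checked the Hoil1 labels, with 54.0 to 169 CPM (the count of a gene scaled to the total count of its library) in the 6 Hoil1+/+ CD45+ libraries and 3.67 to 15.5 CPM in the 6 Hoil1-/- libraries. Ptprc, which encodes CD45, was at 180 to 845 CPM in CD45+ libraries. CD45+ libraries held 14938629 to 76807504 counts on genes, and of these 170255 to 2288907 fell on Ighv segments.

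All segments lie on chromosome 12 (GRCm38), minus strand, between 113578504 and 116000461, a stretch of 2421.958 kb upstream of the D, J and constant genes. Each is a short gene of a leader exon and a variable exon, and the summed exon length ranged from 294 to 480 bases with a median of 353. Usage was computed as counts per kb of exon, divided by the sum over all 113 segments. In the 12 CD45+ libraries 9 different segments ranked first. Their germline 3′ ends are printed because the results turn on them. Each sequence holds the last 90 bases of the variable exon as annotated in GENCODE M21, 5′ to 3′ on the coding strand. Capitals mark the codon of the conserved cysteine that closes the V domain and the bases behind it, where joining to the D segment takes place.
Ighv1-26: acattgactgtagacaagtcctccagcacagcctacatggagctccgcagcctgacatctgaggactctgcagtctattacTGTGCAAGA
Ighv1-18: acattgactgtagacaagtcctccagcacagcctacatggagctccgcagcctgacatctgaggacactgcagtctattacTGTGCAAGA
Ighv1-31: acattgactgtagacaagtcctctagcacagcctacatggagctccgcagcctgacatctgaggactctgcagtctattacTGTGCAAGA
Ighv1-78: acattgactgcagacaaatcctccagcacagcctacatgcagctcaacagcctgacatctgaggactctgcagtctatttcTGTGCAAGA
Ighv2-5: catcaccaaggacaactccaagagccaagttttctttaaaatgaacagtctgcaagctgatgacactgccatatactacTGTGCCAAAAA
Ighv3-6: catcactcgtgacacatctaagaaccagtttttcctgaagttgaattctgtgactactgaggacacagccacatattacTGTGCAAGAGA
Ighv5-16: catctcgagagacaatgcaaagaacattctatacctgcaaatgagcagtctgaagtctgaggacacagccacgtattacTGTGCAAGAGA
Ighv10-1: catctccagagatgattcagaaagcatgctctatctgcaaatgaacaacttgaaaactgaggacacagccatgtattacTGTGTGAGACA
Ighv14-4: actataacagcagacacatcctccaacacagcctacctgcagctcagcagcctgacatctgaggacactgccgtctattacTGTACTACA

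The genes lie, on the minus strand, at chr12:114788372-114788805 (Ighv1-26), chr12:114682632-114683065 (Ighv1-18), chr12:114829264-114829697 (Ighv1-31) and chr12:115868773-115869227 (Ighv1-78). Ighv2-5 lies at chr12:113685482-113686045, Ighv3-6 at chr12:114288152-114288582 and Ighv5-16 at chr12:113838526-113839010. Ighv10-1 lies at chr12:114479005-114479451 and Ighv14-4 at chr12:114176438-114176867. The lines of Ighv1-26, Ighv1-18 and Ighv1-31 look nearly alike, and over the last 290 bases Ighv1-26 and Ighv1-18 were 97.2% identical, with 94 identical bases in the longest shared run. Such pairs can exchange reads during counting. In all, 75 of the 113 segments shared no 100-base stretch with any other annotated transcript, 38 shared some, and 2 of these, Ighv1-71 and Ighv1-62-2, kept under 50% of theirs to themselves (both named after their values were seen). Of the 9 leading segments, Ighv1-26 and Ighv1-31 shared 100-base stretches with other genes, and 92.1% and 96.0% of theirs were unique.

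Usage was spread over many segments in every CD45+ library, but the segment in first place changed from library to library. Ighv14-4 led in WT-f/f replicate 1 with 8.82% of usage, Ighv3-6 in replicate 2 with 8.41%, and Ighv1-31 in replicate 3 with 14.4%. In WT-ΔIEC mice the leaders were Ighv5-16 with 11.1%, Ighv10-1 with 26.5% and Ighv2-5 with 15.1% in replicates 1, 2 and 3. No segment led in more than 1 of the 6 Hoil1+/+ libraries.

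Ighv1-18 led in KO-f/f replicate 1 with 13.5% of usage, Ighv1-26 in replicate 2 with 10.0%, and Ighv3-6 in replicate 3 with 13.3%. In KO-ΔIEC mice Ighv1-78 led replicate 1 with 9.28%, and Ighv1-26 led replicates 2 and 3 with 10.97% and 13.01%. Thus Ighv1-26 came first in 3 libraries, all of them Hoil1-/-, Ighv3-6 in 2 libraries, 1 of each Hoil1 genotype, and 7 segments in 1 library each. Whether the leading segment differs with Hoil1 was not tested, since each library gives a single leader.

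**Figure D1:**
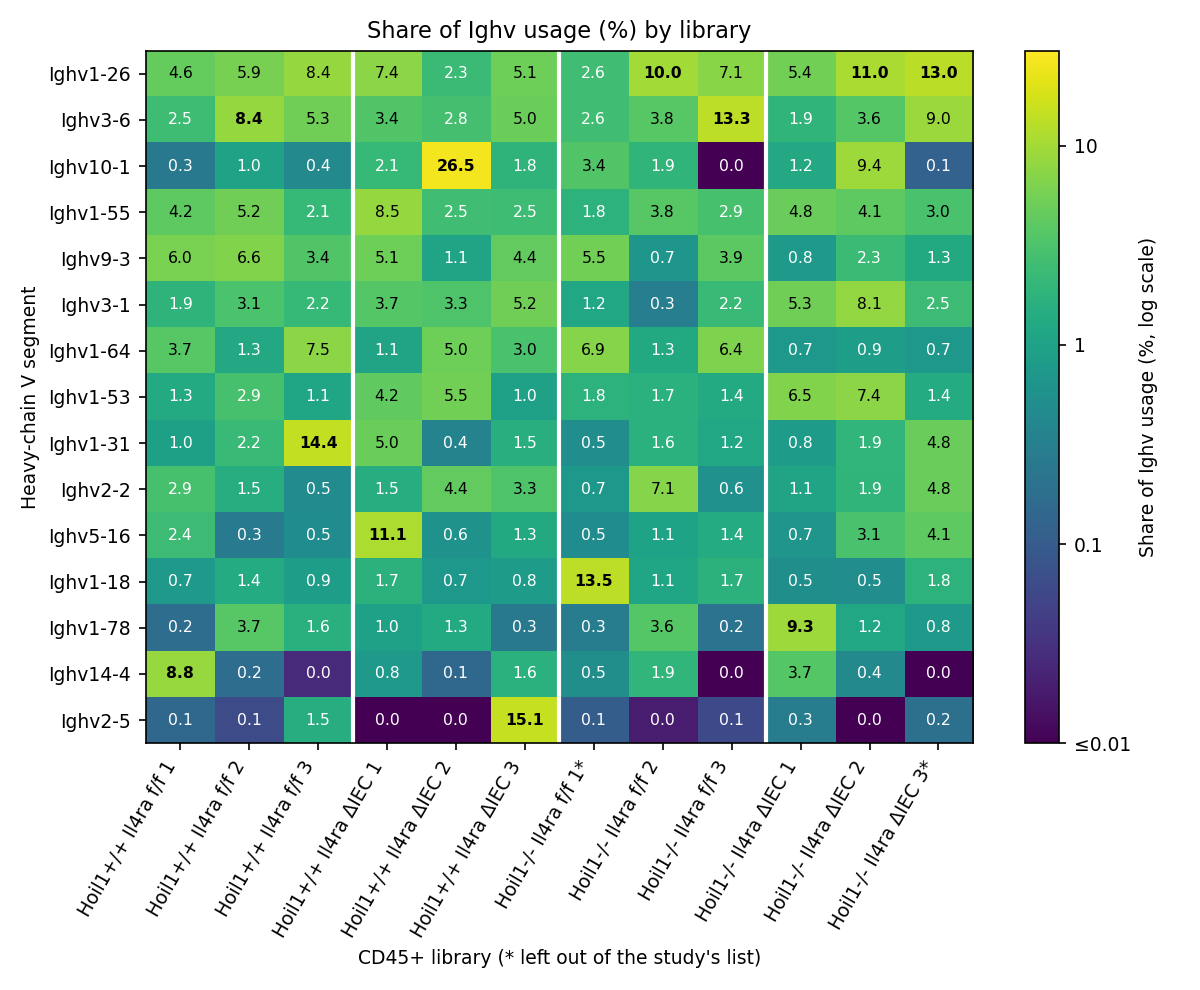
Share of Ighv usage in percent (colour on a log scale, value printed in each cell) of the 15 segments that ranked first in any CD45+ library or were among the 10 highest by mean, in 12 libraries of 4 genotypes. Bold marks the leading segment of each library, and an asterisk a library the study left out. Ighv1-26 was at 2.32% or more in every library, while Ighv10-1 reached 26.5% in 1 library and Ighv2-5 15.1% in another.

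Ighv1-26 had the highest mean share, 6.91% over the 12 libraries, from 2.32% to 13.01%. By library it was at 4.59%, 5.85% and 8.42% in WT-f/f, 7.45%, 2.32% and 5.13% in WT-ΔIEC, 2.62%, 10.0% and 7.15% in KO-f/f, and 5.45%, 10.97% and 13.01% in KO-ΔIEC mice. The Hoil1-/- libraries held the 3 highest values and the second lowest, so the genotypes overlapped. In edgeR's quasi-likelihood test of its counts the log2 fold change for the Hoil1 mutation was 0.32 (standard error 0.60, adjusted p = 0.986).

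Ighv3-6 followed with a mean share of 5.13%. It was at 2.49%, 8.41% and 5.30% in WT-f/f, 3.36%, 2.80% and 4.95% in WT-ΔIEC, 2.60%, 3.80% and 13.3% in KO-f/f, and 1.86%, 3.62% and 9.00% in KO-ΔIEC mice. The genotypes overlapped, with the highest value in 1 KO-f/f library. Ighv1-55, with a mean of 3.79%, and Ighv1-9, with 2.40%, were the other segments at 1% or more in all 12 libraries, and Ighv1-9 moved least of the 4, with a standard deviation of 0.873 percentage points.

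Ighv10-1 had a mean share of 4.005% and was uneven. It took 26.5% in WT-ΔIEC replicate 2 and 9.37% in KO-ΔIEC replicate 2, against at most 3.40% in the other 10 and a median of 1.52%. In the first of these the confidence interval of its share of Ighv counts was 25.9% to 26.3% (Wilson, 95%), which covers counting error only, since PCR copies were not separated by molecular identifiers. That library was the most dominated one, and in it Igkv12-46 took 24.7% of the usage of Igkv light-chain segments.

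Some segments stood well above their median in a single library. Ighv2-5 was at 15.1% in WT-ΔIEC replicate 3, at 1.47% in WT-f/f replicate 3, and at most 0.296% in the other 10, so its highest share was 177 times its median. Ighv14-4 was at 8.82% in WT-f/f replicate 1 against a median of 0.479%. Ighv1-18 was at 13.5% in KO-f/f replicate 1 and at 0.499% to 1.75% elsewhere, while its near copy Ighv1-26 took its second lowest share, 2.62%, in that library. Of the 100-base stretches of Ighv1-18, 100% were unique, and an exchange of reads between these segments was not tested. Ighv5-16 took 11.1% in WT-ΔIEC replicate 1, and at most 4.15% elsewhere. Ighv1-31 took 14.4% in WT-f/f replicate 3, and at most 5.04% elsewhere. Ighv1-78, which led KO-ΔIEC replicate 1 with 9.28%, had a median of 1.07%.

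Over all members, 4 segments were at 1% or more in all 12 libraries, 6 in 10 or 11, 11 in exactly 1 and 44 in none. Equal use would give each segment 0.885%, and 75 of the 113 had a mean below this. The 10 segments with the highest means, which were Ighv1-26, Ighv3-6, Ighv10-1, Ighv1-55, Ighv9-3, Ighv3-1, Ighv1-64, Ighv1-53, Ighv1-31 and Ighv2-2, summed to 38.2% of usage, and the lowest 56 to 6.93%. Means from 3.41% to 2.51% were seen for the 6 of these not yet described by their mean, Ighv9-3 to Ighv2-2. Only 7 segments reached 10% anywhere, in 9 of the 12 libraries.

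**Figure D2:**
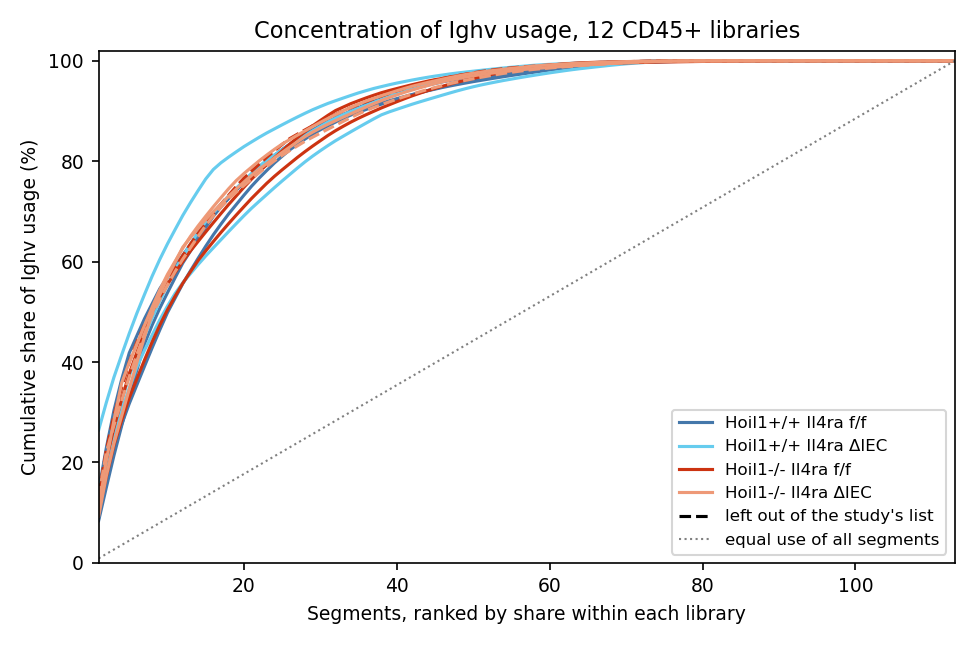
Cumulative share of Ighv usage in percent against the rank of the segment within each library, 1 line for each of the 12 CD45+ libraries coloured by genotype, dashed where the study left the library out, with equal use of all segments dotted. The curves of the 4 genotypes overlap except that of WT-ΔIEC replicate 2, which starts at 26.5% and lies above the others until the curves meet.

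Dominance of the leading segment did not separate the genotypes. The top share was 10.6% ± 3.37 (SD, n = 3) in WT-f/f, 17.6% ± 7.96 (SD, n = 3) in WT-ΔIEC, 12.3% ± 1.97 (SD, n = 3) in KO-f/f and 11.1% ± 1.86 (SD, n = 3) in KO-ΔIEC mice. All ranges overlapped, and the lowest WT-ΔIEC value of 11.1% lay below the highest value of each other group. Over Hoil1 genotypes the top share ran from 8.41% to 26.5% in 6 Hoil1+/+ and from 9.28% to 13.5% in 6 Hoil1-/- libraries.

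The inverse Simpson index, which is the number of equally used segments that would give the same concentration, had a median of 22.4 over the 12 libraries. It was 24.5 ± 4.03 (SD, n = 3) in WT-f/f, 18.9 ± 6.89 (SD, n = 3) in WT-ΔIEC, 23.3 ± 3.44 (SD, n = 3) in KO-f/f and 22.6 ± 1.52 (SD, n = 3) in KO-ΔIEC mice. WT-ΔIEC replicate 2 stood apart at 10.99, and the other 11 lay between 19.9 and 27.5. Between 20 and 31 segments per library were at 1% or more, and the 5 highest together took 31.7% to 45.7%. No p-value is given for these scores over the members.

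**Figure D3:**
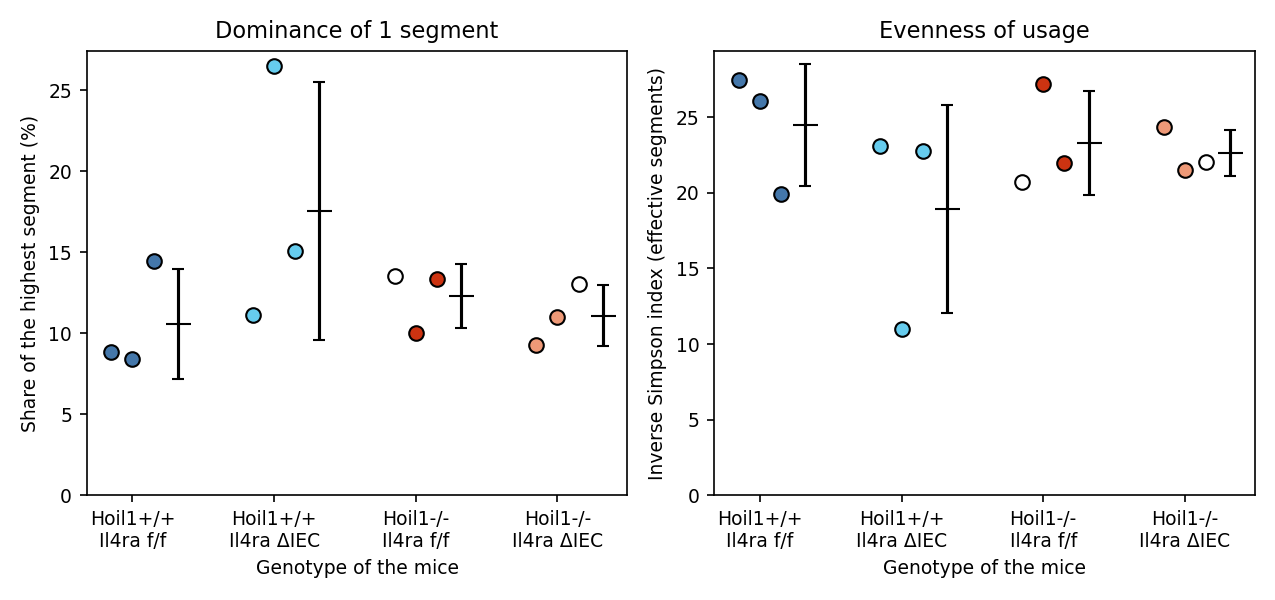
Share of the leading Ighv segment in percent (left) and inverse Simpson index (right) in the 12 CD45+ libraries by genotype, 1 point per library, open where the study left it out, with the mean and SD of 3 libraries beside them. The values overlap between genotypes, and 1 WT-ΔIEC library lies apart at 26.5% and 10.99.

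Pairs of libraries of the same genotype and of different genotypes had close medians of shared usage. The usage that 2 libraries shared, summed over segments as the smaller of their shares, had a median of 51.2% in the 12 pairs of the same genotype, 50.7% in the 18 pairs of the same Hoil1 but different Il4ra genotype, and 51.7% in the 36 pairs of different Hoil1 genotype. Spearman's rho over the 113 segments had medians of 0.706, 0.742 and 0.727 in these pairs. These are descriptions over segments of pairs that share libraries, and carry no test.

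Families of few members reached high shares in single libraries. The Ighv1 family, the large J558 group with 53 of the 113 members, took a median of 53.5% and ranged from 33.8% to 61.0%. Its low came in WT-ΔIEC replicate 3, where Ighv2-5 led. The 2 members of Ighv10 took a median of 1.91% and up to 27.3%, the 9 of Ighv2 a median of 3.22% and up to 19.6%, and the 6 of Ighv3 a median of 7.73% and up to 15.7%. In contrast, the 9 members of Ighv8 took at most 2.91%. The shares of Ighv1 overlapped between the genotypes, with means of 54.2% ± 8.75, 45.5% ± 10.5, 55.4% ± 2.14 and 54.6% ± 5.77 (SD, n = 3 each) in the order of genotypes used above.

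Segments along the whole locus were used. The 38 segments nearest to the D and J genes took a mean of 31.7% over the 12 libraries, the 38 in the middle 39.0%, and the 37 farthest 29.2%. The nearest group ran from 18.9% to 52.2%, the high being the library led by Ighv2-5, and the middle group from 26.1% to 50.2%. Usage by family and by position was not tested between genotypes.

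The amount of Ighv RNA varied more between libraries than between genotypes. Summed Ighv CPM were 30444, 12991 and 41299 in WT-f/f and 13822, 9490 and 21720 in WT-ΔIEC mice. They were 9522, 16178 and 45815 in KO-f/f and 18067, 11397 and 24139 in KO-ΔIEC mice, where the first and the last of these 6 are the left-out libraries. The group means were 28244 ± 14282, 15010 ± 6201, 23838 ± 19321 and 17868 ± 6373 CPM (SD, n = 3 each). The spread within groups exceeded the differences between Hoil1 genotypes, and every pair of groups overlapped. By Il4ra genotype the mean was 26041 ± 15386 CPM in f/f and 16439 ± 5838 CPM in ΔIEC libraries (SD, n = 6 each), and the ranges overlapped. The tests of single segments for Il4ra are given below. Without KO-f/f replicate 3 the mean of KO-f/f mice was 12849.8 CPM. All immunoglobulin genes together took 12.1% to 44.0% of the counts of a CD45+ library, the highest in KO-f/f replicate 3.

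In the CD45- fraction Ighv segments summed to 7.21 to 1650 CPM, below the lowest CD45+ library in all 12. edgeR's quasi-likelihood test between fractions, over 21 libraries, called 91 of 98 segments tested, all of them higher in CD45+ cells. On the CD45- libraries alone the same count filter kept 50 of the 98, so the rest were tested only through their level in CD45+ libraries, which largely fixed their direction, and the count of calls is given as a description. Of all 18778 genes tested, 49.6% were called and 24.5% were called higher in CD45+ cells, while 53.8% reached an unadjusted p under 0.05. With all 24 libraries, 92 of 96 segments and 50.5% of all genes were called. Ighv1-26 had the smallest p, with a log2 ratio of 9.04 ± 0.88 (SE) and an adjusted p of 4.12e-07 by edgeR. Of the 7 segments not called, 6 had no count in the 11 CD45- libraries of this test. Their p-values, near 1, say nothing of the difference. Other segments without a CD45- count were called, since 98 were tested and 78 members had a count in any CD45- library. Why these 6 were not called was not tested.

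**Figure D4:**
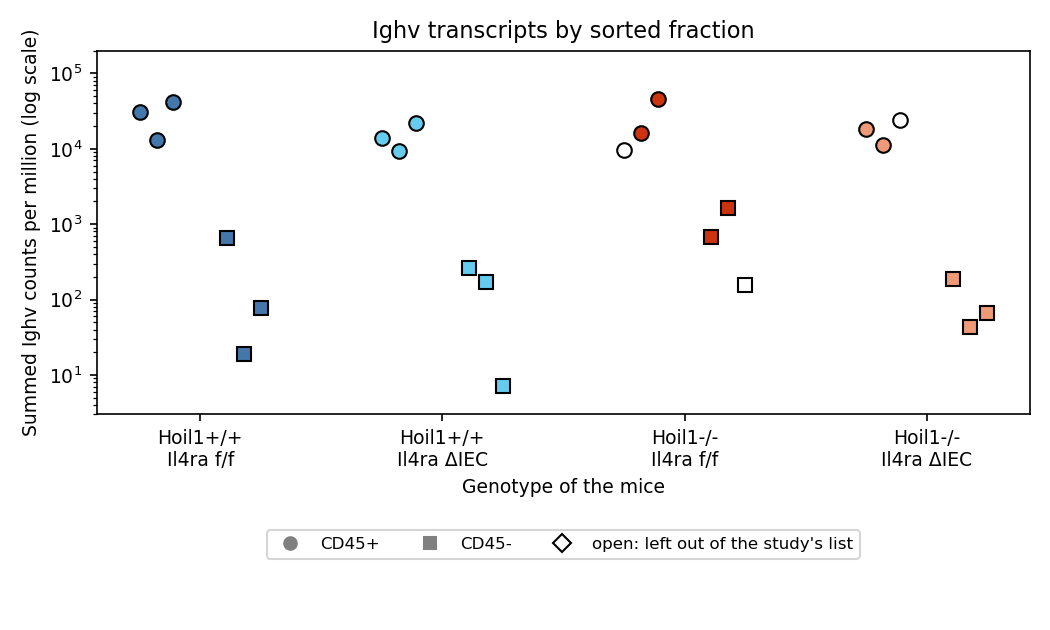
Summed Ighv CPM (log axis) in 12 CD45+ libraries (circles) and 12 CD45- libraries (squares) by genotype, open where the study left the library out. All CD45+ libraries lie between 9490 and 45815, and all CD45- libraries at 1650 or below.

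For the Hoil1 mutation, averaged over the Il4ra genotypes, edgeR's quasi-likelihood test called 0 of the 99 segments that passed the count filter, against 1 of 17029 genes in all (0.00587%). The other 14 segments, with low counts, were not tested. The study, with edgeR's generalized linear model, named more genes for Hoil1 in this fraction, among them Nmur1, Klrg1 and Il5. The quasi-likelihood test called fewer, so 0 called segments do not show that Hoil1 has no effect on them. At an unadjusted p under 0.05 there were 4 segments, 2 higher and 2 lower, against 5.85% of all genes. The median log2 fold change of the 99 was -0.0023, with 50 lower. Single libraries moved this: without KO-f/f replicate 3 there were 13 segments, all lower, against 5.1% of all genes, and the median was -0.67 with 75 of 101 lower. Without WT-ΔIEC replicate 3 there were 8, 7 of them higher, against 5.65%, and without KO-f/f replicate 2 there were 7, 5 of them higher, against 4.2%. The medians were then 0.21 and 0.17. DESeq2 and edgeR's likelihood ratio test each called 1 segment, Ighv1-36, against 126 and 103 of all genes (0.74% and 0.605%). Over all 12 libraries, 0 of 96 segments were called by edgeR's quasi-likelihood test, where 0.0125% of all genes were called and 0.00623% called higher. The median log2 fold change was then 0.25, with 58 of the 96 higher. At an unadjusted p under 0.05 there were 8, against 4.14% of all genes, and none had values that did not overlap between the 6 Hoil1+/+ and the 6 Hoil1-/- libraries, where 0.249% of all genes did.

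Ighv1-36 had the smallest p for Hoil1 and shows how a left-out library bears on it. It was at 7.87, 5.91 and 7.22 CPM in WT-f/f and 2.63, 2.10 and 0.728 CPM in WT-ΔIEC mice. In Hoil1-/- mice it had no count in 4 of the 6 libraries, 1.24 CPM in Il4ra f/f replicate 2, and 526 CPM in the left-out Il4ra ΔIEC replicate 3, the highest value of all 12. The quasi-likelihood test of edgeR over 10 libraries gave an adjusted p of 0.549, and over 12 libraries 1.00. Its fitted fold change depends on the prior count, because the KO-ΔIEC libraries of the 10 had none.

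The next 4 by p did not pass the test either, with an adjusted p of 0.783 each from edgeR. Ighv1-39 was at 27.4 to 146 CPM in Hoil1+/+ and 94.99 to 795 CPM in Hoil1-/- libraries, and the groups overlapped (log2 ratio 1.84, standard error 0.61). Leaving out each library in turn gave log2 ratios of Ighv1-39 from 1.14 to 2.36. Ighv9-1 was at 654 CPM in WT-f/f replicate 3, and from 0.0496 to 47.6 CPM in the other 11. Ighv5-6 was at 12.1 to 450 CPM in Hoil1+/+ and at 0 to 170 CPM in Hoil1-/- libraries. Ighv8-5 had no count in the 3 WT-f/f libraries, and its highest level was 10.0 CPM, in KO-f/f replicate 3.

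Within each Il4ra genotype the quasi-likelihood test of edgeR also called 0 of 99 segments for Hoil1, and 0 of all 17029 genes. In Il4ra f/f mice 9 segments had an unadjusted p under 0.05, 7 higher and 2 lower, where 5.27% of all genes did, and neither DESeq2 nor the likelihood ratio test called any (0.546% and 0.388% of all genes). Single libraries moved this count or its direction. Without KO-f/f replicate 3 there were 11, 1 higher and 10 lower, with a median log2 fold change of -1.87, and without WT-f/f replicate 2 there were 10, 3 higher and 7 lower, against 4.05% and 13.3% of all genes. Without KO-f/f replicate 2 there were 19, 15 higher and 4 lower, and without WT-ΔIEC replicate 3 there were 14, 9 higher and 5 lower, against 4.35% and 5.26%. The median log2 fold change was -0.06 over the 10 libraries, -0.35 over all 12 and 0.44 without KO-f/f replicate 2. It was 0.47 without WT-f/f replicate 3, where 10 segments, 9 higher and 1 lower, had such a p against 4.06% of all genes. In ΔIEC mice 6 did, 3 in each direction, where 6.08% of all genes did, and DESeq2 and the likelihood ratio test each called Ighv1-36 (0.934% and 0.299% of all genes). The 6 became 12, 11 and 10 without KO-f/f replicate 2, KO-f/f replicate 3 and KO-ΔIEC replicate 2, with 5, 5 and 7 of them higher, against 5.47%, 5.42% and 3.4% of all genes. The median log2 fold change, -0.11 over the 10 libraries, was -1.03 without KO-ΔIEC replicate 1, where 4 segments, all lower, had such a p against 4.04% of all genes. It was 0.57 without WT-ΔIEC replicate 3, with 3 higher and 1 lower against 7% of all genes, and 0.66 over all 12 libraries, with 8 higher and 4 lower. For the difference between these effects, the interaction, the quasi-likelihood test called 0 segments and 0 of all 17029 genes. The likelihood ratio test called 0 segments and 0.399% of all genes. DESeq2 called 2 segments, Ighv15-2 and Ighv2-9, and 0.94% of all genes. In the quasi-likelihood test 13 segments had an unadjusted p under 0.05, against 7.01% of all genes. Without KO-ΔIEC replicate 1 the 13 became 7, against 4.54% of all genes. The median log2 fold change turned from -0.51 to 1.52 without KO-f/f replicate 3 and to 0.24 without WT-ΔIEC replicate 3. It was -1.36 without KO-ΔIEC replicate 1 and -1.21 without WT-f/f replicate 3. Over all 12 libraries 0 of 96 were called in each of these comparisons by edgeR. Of all genes 0.00623% were then called for Hoil1 in f/f and as many in ΔIEC mice, and 0 of 16060 for the interaction. An unadjusted p under 0.05 was then reached by 6, 12 and 15 segments for Hoil1 in f/f mice, Hoil1 in ΔIEC mice and the interaction, against 3.13%, 4.48% and 4.38% of all genes. For the interaction 12 of the 15 were higher and 3 lower, against 5 and 8 over the 10 libraries, and the median turned to 0.46. Ighv15-2 reached at most 12.4 CPM, in KO-f/f replicate 3, and Ighv2-9 was at 524 CPM in that library against at most 45.2 CPM in 10 libraries and 1066 CPM in the left-out KO-ΔIEC replicate 3.

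For deletion of epithelial Il4ra, averaged over the Hoil1 genotypes, 84 of the 99 segments tested were lower in ΔIEC mice, and their median log2 fold change was -1.71, while 50.8% of all genes were lower and their median was -0.01. None was called by edgeR's quasi-likelihood test, which called 1 of 17029 genes. At an unadjusted p under 0.05 there were 41 segments, 2 higher and 39 lower, against 10.6% of all genes in either direction and 5.36% lower. DESeq2 called 15 segments and the likelihood ratio test 13, all of them lower, where 2% and 1.18% of all genes were called, and the 13 were among the 15. The segments were counted in the same libraries, so their counts are not independent of each other.

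The size of this pattern changed with single libraries, and leaving out each in turn gave 19 to 51 segments with an unadjusted p under 0.05. The highest count came without WT-ΔIEC replicate 3, with 50 lower, a median log2 fold change of -2.06 and 9.79% of all genes. Without KO-f/f replicate 3, which had the most Ighv RNA, 19 segments had an unadjusted p under 0.05, against 5.74% of all genes, and the median log2 fold change was -0.89. Without KO-ΔIEC replicate 2 there were 27, against 5.68% of all genes, with a median of -1.77. Over all 12 libraries there were 20 of 96, all lower, where 5.49% of all genes had such a p and 2.93% were lower with one, the median was -1.16 and 71 of 96 were lower. None of the 96 had values that did not overlap between the 6 f/f and the 6 ΔIEC libraries, where 0.299% of all genes did.

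**Figure D5:**
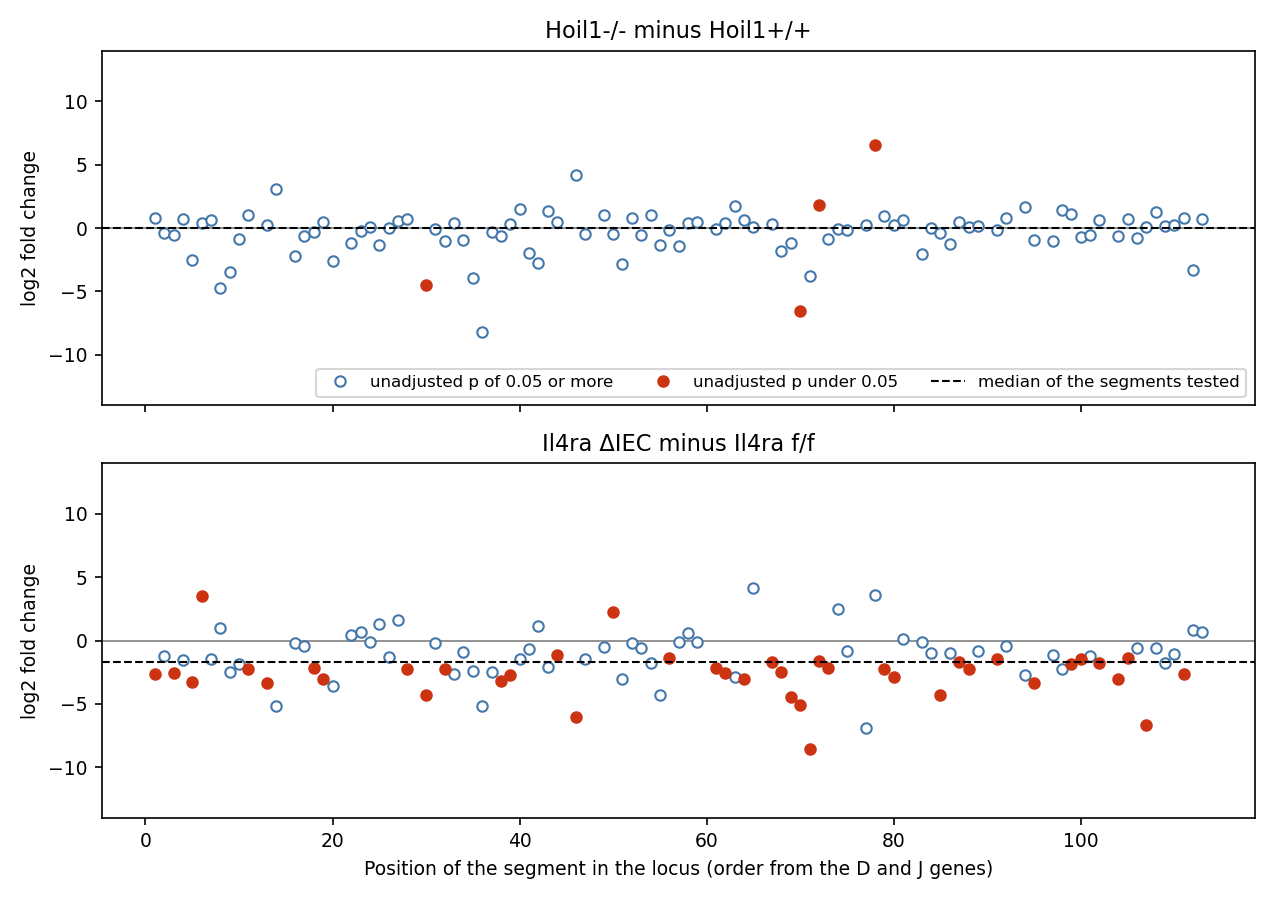
log2 fold change (edgeR, 10 CD45+ libraries) of the 99 Ighv segments tested, in the order of the locus from the D and J genes, for the Hoil1 mutation (top) and deletion of epithelial Il4ra (bottom). Filled points have an unadjusted p under 0.05 and none passed the adjusted threshold, and the dashed line is the median, at -0.0023 above and -1.71 below.

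Ighv1-74 had the smallest p for Il4ra. It was at 117, 679 and 83.8 CPM in WT-f/f, 35.9, 20.2 and 29.4 CPM in WT-ΔIEC, 3.31, 59.1 and 172 CPM in KO-f/f, and 15.97, 37.96 and 62.2 CPM in KO-ΔIEC mice. The 5 f/f libraries tested lay above the 5 ΔIEC libraries tested, but the left-out f/f library had the lowest value of the 12 libraries. Its log2 ratio was -3.05 ± 0.58 (SE), with an adjusted p of 0.183 by edgeR.

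Ighv1-22 was at 1077, 716 and 1179 CPM in WT-f/f against 121, 103 and 214 CPM in WT-ΔIEC mice, and at 79.1, 191 and 2471 CPM in KO-f/f against 264, 289 and 91.2 CPM in KO-ΔIEC mice. The groups were apart in Hoil1+/+ mice and overlapped in Hoil1-/- mice. The log2 fold change averaged over both was -3.04 (standard error 0.69, adjusted p = 0.221, edgeR), and the interaction with Hoil1 was not called. Without KO-f/f replicate 3 it was -1.39. For Ighv1-77, Ighv5-17 and Ighv1-58 the adjusted p was 0.221, 0.283 and 0.286 in the same edgeR test. Ighv1-77 was at 0.859 to 69.4 CPM in f/f and at 0 to 17.7 CPM in ΔIEC libraries. Ighv5-17 was at 240 to 920 CPM in f/f and 97.3 to 765 CPM in ΔIEC libraries, and Ighv1-58 at 26.8 to 231 CPM and 33.9 to 71.2 CPM.

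The genes that travel with Ighv RNA in antibody-secreting cells were listed beside these results. Of the 7 heavy-chain constant genes tested, none was called for Hoil1 or Il4ra by edgeR's quasi-likelihood test. An unadjusted p under 0.05 was reached by 1 for Hoil1, higher, and by 2 for Il4ra, 1 in each direction, against 5.85% and 10.6% of all genes. For the interaction 4 of the 7 reached it, all lower, against 7.01% of all genes in either direction. Igha, the IgA constant gene, took 91.9% to 99.7% of constant-gene counts per kb. Igha had a log2 fold change of -1.41 for Il4ra (standard error 0.51, adjusted p = 0.410, edgeR). Igha was at 114622, 59144 and 175136 CPM in WT-f/f and 60379, 40517 and 83930 CPM in WT-ΔIEC mice. It was at 40309, 68371 and 172302 CPM in KO-f/f and 77066, 49789 and 96449 CPM in KO-ΔIEC mice. The libraries highest in Ighv RNA, WT-f/f replicate 3 and KO-f/f replicate 3, were also the highest in Igha.

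Of 12 plasma cell genes, all tested, 8 had an unadjusted p under 0.05 for Il4ra, each lower, against 5.36% of all genes lower with such a p, among them Tnfrsf17, the BCMA receptor on which plasma cell survival depends, with a log2 ratio of -1.59 ± 0.38 (SE) and an adjusted p of 0.241 by edgeR. Of 12 mature B cell genes 9 had an unadjusted p under 0.05, each higher in ΔIEC mice, against 5.24% of all genes higher. For the interaction with Hoil1, 7 of the 12 mature B cell genes had such a p, each lower, with a median log2 fold change of -1.72. Of the plasma cell genes 0 had one, against 7.01% of all genes in either direction. No gene of either list was called by edgeR for Hoil1 or Il4ra, and for Hoil1 0 plasma cell and 4 mature B cell genes, all higher, had an unadjusted p under 0.05, against 5.85% of all genes in either direction and 3.11% higher. Summed over the plasma cell list, whose most abundant gene is Xbp1, levels were 3045, 1677 and 3226 CPM, 1862, 1507 and 2319 CPM, 1194, 1952 and 2681 CPM, and 2019, 1588 and 3060 CPM in the 4 genotypes in the order above. Summed over the mature B cell list, whose most abundant gene is Cd79a, they were 453, 459 and 526 CPM, 812, 1830 and 2055 CPM, 425, 1239 and 734 CPM, and 869, 1279 and 450.3 CPM. In Hoil1+/+ mice the B cell sums of the ΔIEC libraries were above those of the f/f libraries, and in Hoil1-/- mice they overlapped. The plasma cell sums overlapped between f/f and ΔIEC libraries in Hoil1+/+ and in Hoil1-/- mice. The left-out libraries held the lowest plasma cell sum, 1194 CPM in KO-f/f, and the highest of the ΔIEC libraries, 3060 CPM in KO-ΔIEC. The counts of genes by p above rest on the kept libraries. No gene of either list was at 0 in all CD45+ libraries, and their part in the lower Ighv counts was not tested.

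No gene of the remaining lists was called for Hoil1 or Il4ra. For Il4ra, Jchain, which joins IgA into dimers, had an unadjusted p under 0.05 and was lower, and Pigr, the epithelial receptor that carries IgA into the gut lumen, did not. Of 8 tested genes of V(D)J recombination and somatic mutation none had an unadjusted p under 0.05 for Il4ra, and 1 of 7 tested germinal center genes did, higher. For Hoil1 these lists had 1 and 2, all lower, against 2.74% of all genes lower. Rag1, which cuts the segments for joining, was at 0 throughout the CD45+ fraction.

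Among markers of other cells for Il4ra, an unadjusted p under 0.05 was reached by 0 of 7 T cell genes, 1 of 5 macrophage and dendritic cell genes, lower, 0 of 5 ILC2 genes, 1 of 7 epithelial genes, lower, 0 of 5 endothelial and stromal genes, and not by Ptprc, against 10.6% of all genes. The marker lists of B cells and plasma cells, which share genes with those above, had 3 of 5 higher and 5 of 6 lower, against 5.24% and 5.36% of all genes. For the interaction 4 of 5 B cell markers and 2 of 7 epithelial genes were lower with such a p. Higher with one were 2 of 5 endothelial and stromal genes and 1 of 5 macrophage and dendritic cell genes, against 7.01% of all genes in either direction. For Hoil1, 5 of 5 ILC2 genes, 3 of 5 endothelial and stromal genes and 2 of 5 B cell genes reached an unadjusted p under 0.05, all higher, against 3.11% of all genes and beside the 4 of 99 Ighv segments given above. Nmur1, Klrg1 and Il17rb of the ILC2 list are genes the study itself called for Hoil1 in this fraction. The ILC2 count is therefore no independent support.

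Ighv was also set beside the 100 Igkv light-chain segments. The leading Ighv share was above the leading Igkv share in 5 of the 12 CD45+ libraries. The 22 Trbv segments of the T cell receptor had an inverse Simpson index below that of Ighv in 11 of 12 libraries, which the smaller number of segments limits. The Trbv index also rested on 446 to 6080 counts per library, against 170255 or more for Ighv.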

How the data were processed

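Raw counts per gene were deposited by the authors, not normalized. They come from featureCounts after adapter removal (cutadapt) and STAR alignment against mm10. Versions, strand setting and treatment of multimapping reads are not given in the sources used here. Of 39056 genes, 38872 matched GENCODE M21 (GRCm38) by identifier, all 113 Ighv segments among them. Members and gene lists were chosen with earlier results of these data known.

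From the counts, CPM used total counts. Tests used edgeR 4.0.16 in R 4.3.3 (quasi-likelihood, TMM, a mean per genotype, filterByExpr with minimum count 10 and minimum total 15), two-sided, with Benjamini-Hochberg adjustment over all genes and a threshold of 0.05. They were tested on simulated data. Named segments led a library, reached 10%, were among the 10 highest by mean, had the 5 smallest p for Hoil1 or Il4ra, or passed the test. Ighv1-9, Ighv1-76, Ighv2-9, Ighv15-2 and the 10 segments without counts were named after their values were seen. Alternatives were DESeq2 1.42.0, the likelihood ratio test, RLE, scaling without immunoglobulin genes, no filter, all libraries, leaving out each library, and a block of genotype and age between fractions. In CD45+ libraries the widest Wilson 95% half-width of a leading share was 0.176 percentage points, and 3 counts were at most 0.00176% of Ighv counts. In CD45- libraries these were 4.98 points and 0.865%. Python 3.11.15, scipy 1.17.1 and matplotlib 3.10.9 were used.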

Additional observations from a re-analysis of the deposited data

How the results depend on the processing

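Counts of called Ighv segments stayed at 0 for all 5 comparisons in CD45+ cells with all 12 libraries, RLE size factors, scaling without immunoglobulin genes, no filter beyond 1 count, and without each library in turn (0 to 0 called). DESeq2 gave 1 for Hoil1, 1 for Hoil1 in ΔIEC mice, 15 for Il4ra and 2 for the interaction, and the likelihood ratio test 1, 1, 13 and 0. Between fractions, 92 of 96 were called with all 24 libraries and 87 of 98 with DESeq2, which called 52.2% of all genes. The 98 include segments for which DESeq2 gave no p-value, and of those with one 96.7% had an unadjusted p under 0.05. The Hoil1 log2 fold change of Ighv1-36 turned from -6.57 to 1.41 with all 12 libraries. The cause of these changes was not tested. Among 160 alternative values of 10 single segments, 12 passed the threshold, all with DESeq2 or the likelihood ratio test. The mean summed Ighv CPM of WT-f/f mice was 45024 in place of 28244 when the library size left out immunoglobulin genes. Of 66 alternative means of top share, inverse Simpson index and summed CPM, the other 65 moved by less than 1 SD, but the SD of summed CPM in KO-f/f mice is nearly as large as the mean of 23838, which became 12849.8 without KO-f/f replicate 3 and 37689.5 with the library size without immunoglobulin genes. The alternatives added pseudogenes, left out the division by exon length, scaled by TMM, used the 10 kept libraries or left out each library in turn. The labels give no replicate numbers and do not name the mice. With genotype and age as a block in the test between fractions, chosen after seeing the data, edgeR called 93 of 98 segments, all higher in CD45+ cells, and 44.4% of all genes. Both fractions were present in 6 of the 10 blocks. With 2 or 3 libraries per genotype, the number of libraries limits the precision, and segments with shared stretches may exchange counts.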

Other observations

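Ighv usage in the CD45- libraries rested on 347 to 49731 counts, and 8 to 44 of the segments had a count in a library, 78 in at least 1 and 0 in all 12. Ighv1-76 took 48.9% of usage in WT-f/f replicate 3, Ighv5-16 45.6% in KO-ΔIEC replicate 3, and Ighv3-6 37.2% in WT-f/f replicate 2. Leading shares of single CD45- libraries thus exceeded the 26.5% of the most dominated CD45+ library in 4 of 12, at far lower depth.

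The usage that a CD45- library shared with a CD45+ library had a median of 23.2% over the 144 pairs, from 6.29% to 49.7%. For 8 of the 12 CD45- libraries the CD45+ library with the most shared usage had the same genotype, and for 7 of them also the same age in the labels, while 15 of the 144 pairs match in both. For example, the CD45- library KO-ΔIEC replicate 2 shared 49.7% with a CD45+ library of the same genotype and age, 9.6 weeks, against a median of 32.8% with the other CD45+ libraries. The labels do not say which CD45- and CD45+ libraries come from the same mouse, and this was not tested.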
